A study of Rattus norvegicus with 10 samples.

Results

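The 7 genes described here are Ugt8, Gal3st1, Fa2h, Cers2, Aspa, Elovl1 and Elovl7. They encode enzymes that build the characteristic sphingolipids of myelin, apart from Aspa, whose enzyme releases acetate for lipid synthesis. They were chosen by name, with earlier results of these data known, and each had 1 row among the 16041 genes of the deposited expression table. Their transcripts were measured by RNA sequencing in prefrontal cortex taken from male Sprague-Dawley rats on postnatal day 91. The early life stress (ELS) group of 5 rats had gone through limited nesting, a rearing stress of scarce nest material, on postnatal days 2 to 9, and the control (Con) group of 5 rats was labelled only as control. Both groups were of the same strain, sex and age, and each library came from its own tissue sample. The labels do not say whether the rats came from separate litters, and p-values reflect only the variation among these 10 tissue samples, which may be partly technical.

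Myelin is the stacked membrane that oligodendrocytes wrap around axons, and it is rich in galactosylceramide and in sulfatide, the sulfated form of galactosylceramide. Both are made from ceramides with very long acyl chains, many of them hydroxylated. Elongases lengthen the acyl chain, a hydroxylase can add a hydroxyl group to it, and a ceramide synthase joins it to the sphingoid base. A transferase then adds galactose, and a sulfotransferase adds sulfate. Oligodendrocytes also take up N-acetylaspartate (NAA), which neurons make, and split it to release acetate for lipid synthesis.

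Levels are given as RPKM, which divides a gene's reads by its length and by the library total, and fold changes are ELS over Con on the log2(RPKM + 0.1) scale, which understates changes of low genes. Library totals ran from 18838898 to 22311136 reads. All 7 genes passed the filter of at least 0.5 RPKM in 5 or more libraries, as did 14642 genes in all. Reads per library ran from 58 to 161 for Gal3st1, the least covered of the 7, and from 666 to 1828 for Ugt8. Counting error alone is 13.1% of the level at 58 reads and 3.87% at 666 reads. Defining genes of cortex were present in both groups, with the glutamate transporter gene of cortical excitatory neurons, Slc17a7, at 399.9 ± 15.6 RPKM in ELS and 369.2 ± 32.1 RPKM in Con (SD, n = 5 each).

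The calls over the whole table depended on which libraries were kept. In a limma-voom fit to recovered reads with sample quality weights, Con replicate 4 had a weight of 0.17, against 0.861 to 2.31 for the other libraries. Over all genes, 0 passed an adjusted p of 0.05 with all libraries, by limma and by limma-voom without weights, and 2988 (20.4%) and 3058 (20.9%) had an unadjusted p under 0.05. Without ELS replicate 2 limma called 440 genes, without Con replicate 4 alone it called 0, and without both it called 1071. Results are also given without these libraries.

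The promoters of the 3 genes with the largest differences are shown beside that of Aspa, whose base composition was unlike theirs. They are RefSeq sequences of the GRCr8 build, the 250 bases before the annotated gene start, 5′ to 3′ on the gene's strand. Each of the 7 genes matched 1 promoter. Capitals mark matches on either strand to 6 motifs, which can overlap one another. These were GGGCGG for the guanine-rich box, the letters CCAAT for the box of that name, and TATAAA as the commonest form of the TATA box. The letters ACAAAG are a core bound by SOX factors, while CTGGCAC and also CTGGTAC are forms bound by the myelin regulator MYRF.
Ugt8 promoter (chr2:217007168-217007417, - strand): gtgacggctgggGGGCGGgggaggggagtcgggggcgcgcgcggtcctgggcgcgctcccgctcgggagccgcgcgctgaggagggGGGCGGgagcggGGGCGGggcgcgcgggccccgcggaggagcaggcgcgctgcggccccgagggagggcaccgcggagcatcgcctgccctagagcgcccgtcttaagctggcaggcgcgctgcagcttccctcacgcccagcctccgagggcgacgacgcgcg
Gal3st1 promoter (chr14:83094135-83094384, + strand): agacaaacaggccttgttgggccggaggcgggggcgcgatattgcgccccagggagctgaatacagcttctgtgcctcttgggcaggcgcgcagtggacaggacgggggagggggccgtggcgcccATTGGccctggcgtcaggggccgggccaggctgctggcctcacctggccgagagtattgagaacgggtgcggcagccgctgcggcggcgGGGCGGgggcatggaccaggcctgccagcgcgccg
Fa2h promoter (chr19:56273481-56273730, - strand): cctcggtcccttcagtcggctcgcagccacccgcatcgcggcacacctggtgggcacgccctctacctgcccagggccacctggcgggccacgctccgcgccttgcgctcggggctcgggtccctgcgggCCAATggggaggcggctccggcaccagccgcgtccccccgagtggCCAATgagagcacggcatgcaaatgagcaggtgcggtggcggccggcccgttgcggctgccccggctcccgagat
Aspa promoter (chr10:58439038-58439287, - strand): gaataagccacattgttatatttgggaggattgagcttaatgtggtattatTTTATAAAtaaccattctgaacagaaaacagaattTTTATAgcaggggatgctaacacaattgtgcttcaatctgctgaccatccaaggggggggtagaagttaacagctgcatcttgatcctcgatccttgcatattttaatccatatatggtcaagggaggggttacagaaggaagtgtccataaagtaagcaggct
The first 3 were rich in G and C, at 81.2% for Ugt8, 72.4% for Gal3st1 and 74.4% for Fa2h, whereas the Aspa promoter had 39.2%. Of the 3 not shown, Cers2 had 77.2%, Elovl1 54% and Elovl7 33.6%. A high content was thus not particular to the genes with the largest differences. The median over the 33469 promoters of the table was 51.2%. Ugt8 held 3 matches to GGGCGG, Gal3st1 held 1 of these and 1 CCAAT box, and Fa2h held 2 CCAAT boxes. Aspa held 3 matches to the TATA letters, starting 199, 197 and 164 bases before the gene start, of which the first pair overlap. GGGCGG was found in 3 of the 7 promoters and in 30.5% of all promoters, CCAAT in 3 of 7 and 34.0%, TATAAA in 2 of 7 and 12.9%, and ACAAAG in 1 of 7, that of Elovl1, and 16.3%. CTGGCAC and CTGGTAC were in 0 of 7, and in 3.78% and 1.78% of all promoters. A match to letters is a description of this window and not a binding site.

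All 7 genes had lower means in ELS than in Con, and 49.4% of all tested genes had a log2 fold change below 0. The median log2 fold change of the 7 was -0.28, against 0.00371 over all tested genes. By limma with Benjamini-Hochberg adjustment over all genes, 0 of the 7 passed, as did 0% of all genes. At an unadjusted p under 0.05, 6 of the 7 were lower, against 10.3% of all tested genes that were lower by this rule. Because the 7 were chosen with earlier results of these data known, such shares are descriptions and not independent evidence. Without ELS replicate 2, 0 of the 7 passed the adjusted threshold, against 2.1% of all genes called lower. Without both that library and Con replicate 4, 2 of the 7 passed, Ugt8 and Fa2h, against 3.92%, and the same 2 passed by limma-voom with sample weights, against 4.07%. The galactosyltransferase, sulfotransferase and hydroxylase genes had ELS means of 65.5% to 68.6% of Con, and the other 4 genes of 81.8% to 87.0%. Without Con replicate 4 these were 73.2% to 78.4% and 85.5% to 90.8%, and the difference between these genes was not tested. Whole tissue was sequenced, so fewer oligodendrocytes and less RNA per oligodendrocyte cannot be told apart.

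Ugt8 (ENSRNOG00000009345) encodes the transferase that adds galactose to ceramide, the committed step of galactosylceramide synthesis. It was at 11.0, 14.4, 12.2, 9.89 and 9.42 RPKM in ELS replicates 1 to 5, against 13.5, 14.7, 15.5, 23.0 and 16.3 RPKM in Con replicates 1 to 5. ELS replicate 2 lay above the lowest Con library, and the other 4 ELS libraries lay below every Con library. The means were 11.4 ± 1.99 RPKM in ELS and 16.6 ± 3.73 RPKM in Con (SD, n = 5 each), and the log2 fold change was -0.53 ± 0.15 (SE; limma with adjusted p = 0.135). Without ELS replicate 2 the log2 fold change was -0.62 (adjusted p = 0.0577), and without Con replicate 4 it was -0.41 (adjusted p = 0.111). Without both it was -0.50 with an adjusted p of 0.0172.

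Gal3st1 (ENSRNOG00000042041) encodes the sulfotransferase that turns galactosylceramide into sulfatide. Its levels were 1.74, 1.84, 1.49, 1.52 and 1.93 RPKM in ELS replicates 1 to 5, against 1.97, 2.50, 2.00, 3.72 and 2.20 RPKM in Con replicates 1 to 5. Every ELS library lay below every Con library, though ELS replicate 5 and Con replicate 1 were close. The means were 1.70 ± 0.191 RPKM in ELS and 2.48 ± 0.727 RPKM in Con (SD, n = 5 each), and the log2 fold change was -0.49 ± 0.17 (SE; limma with adjusted p = 0.167). Without Con replicate 4 the Con mean was 2.17 RPKM and the log2 fold change -0.33.

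Fa2h (ENSRNOG00000018950) encodes fatty acid 2-hydroxylase, which makes the hydroxylated acyl chains of myelin galactolipids. Its levels were 5.80, 6.46, 5.46, 4.60 and 5.62 RPKM in ELS replicates 1 to 5, against 6.47, 8.24, 8.03, 12.1 and 7.79 RPKM in Con replicates 1 to 5. The groups did not overlap, but the margin was thin, since ELS replicate 2 and Con replicate 1 differed by less than 0.01 RPKM. Fa2h had the lowest p of the 7, with means of 5.59 ± 0.671 RPKM in ELS and 8.53 ± 2.14 RPKM in Con (SD, n = 5 each) and and the log2 fold change was -0.58 ± 0.15 (SE; limma with adjusted p = 0.133). Without both ELS replicate 2 and Con replicate 4 it was -0.50 with an adjusted p of 0.022. Gal3st1 and Fa2h were the 2 of the 7 with every ELS library below every Con library, against 2.6% of all tested genes.

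Cers2 (ENSRNOG00000021138) encodes the ceramide synthase that prefers very long acyl chains. It was at 9.01, 10.3, 10.6, 8.54 and 9.40 RPKM in ELS replicates 1 to 5, against 10.4, 10.9, 11.3, 14.6 and 11.2 RPKM in Con replicates 1 to 5. In Con, replicate 4 stood far above the other 4 libraries, which lay within 1 RPKM of each other, and 4 of 5 ELS libraries lay below them all. The means were 9.56 ± 0.847 RPKM in ELS and 11.7 ± 1.70 RPKM in Con (SD, n = 5 each), and the log2 fold change was -0.28 ± 0.10 (SE; limma with adjusted p = 0.165). Without Con replicate 4 the log2 fold change was -0.20.

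The elongase genes Elovl1 and Elovl7 had smaller differences. Elovl1 (ENSRNOG00000028448), whose enzyme lengthens saturated and monounsaturated very long chains, was at 11.4, 10.02, 12.7, 11.4 and 12.4 RPKM in ELS replicates 1 to 5, against 12.8, 12.5, 13.8, 16.2 and 13.5 RPKM in Con replicates 1 to 5. ELS replicate 3 alone lay above the lowest Con library, and ELS replicate 2, the highest ELS library in Ugt8 and Fa2h, was the lowest here. The log2 fold change of Elovl1 was -0.24 ± 0.08 (SE; limma, adjusted p = 0.166), from means of 11.6 ± 1.06 RPKM in ELS and 13.7 ± 1.46 RPKM in Con (SD, n = 5 each). Without both ELS replicate 2 and Con replicate 4 it was -0.13.

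Elovl7 (ENSRNOG00000010450), an elongase gene for saturated long chains, was at 6.20, 5.33, 5.05, 4.67 and 5.56 RPKM in ELS replicates 1 to 5, against 5.29, 6.42, 6.24, 7.20 and 5.67 RPKM in Con replicates 1 to 5. The groups overlapped broadly, with ELS replicate 1 above 2 Con libraries. The means were 5.36 ± 0.574 RPKM in ELS and 6.16 ± 0.732 RPKM in Con (SD, n = 5 each), a log2 fold change of -0.20 ± 0.10 (SE; limma, unadjusted p = 0.0716, adjusted p = 0.284). It was the member that missed an unadjusted p of 0.05.

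Aspa (ENSRNOG00000019659) encodes aspartoacylase, the enzyme that splits NAA and is lost in Canavan disease. It was at 4.63, 4.34, 4.40, 4.02 and 4.21 RPKM in ELS replicates 1 to 5, against 5.72, 5.30, 4.51, 5.84 and 4.68 RPKM in Con replicates 1 to 5. The ELS libraries kept within a narrow band, with a coefficient of variation of 5.18% against 11.5% in Con, and ELS replicate 1 alone lay above the lowest Con library. The means were 4.32 ± 0.224 RPKM in ELS and 5.21 ± 0.601 RPKM in Con (SD, n = 5 each), and the log2 fold change was -0.26 ± 0.08 (SE; limma with adjusted p = 0.157). Con replicate 4 was only 1.02 times the next Con library in Aspa, against 1.41 times in Ugt8, 1.49 times in Gal3st1 and 1.47 times in Fa2h.

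**Figure D1:**
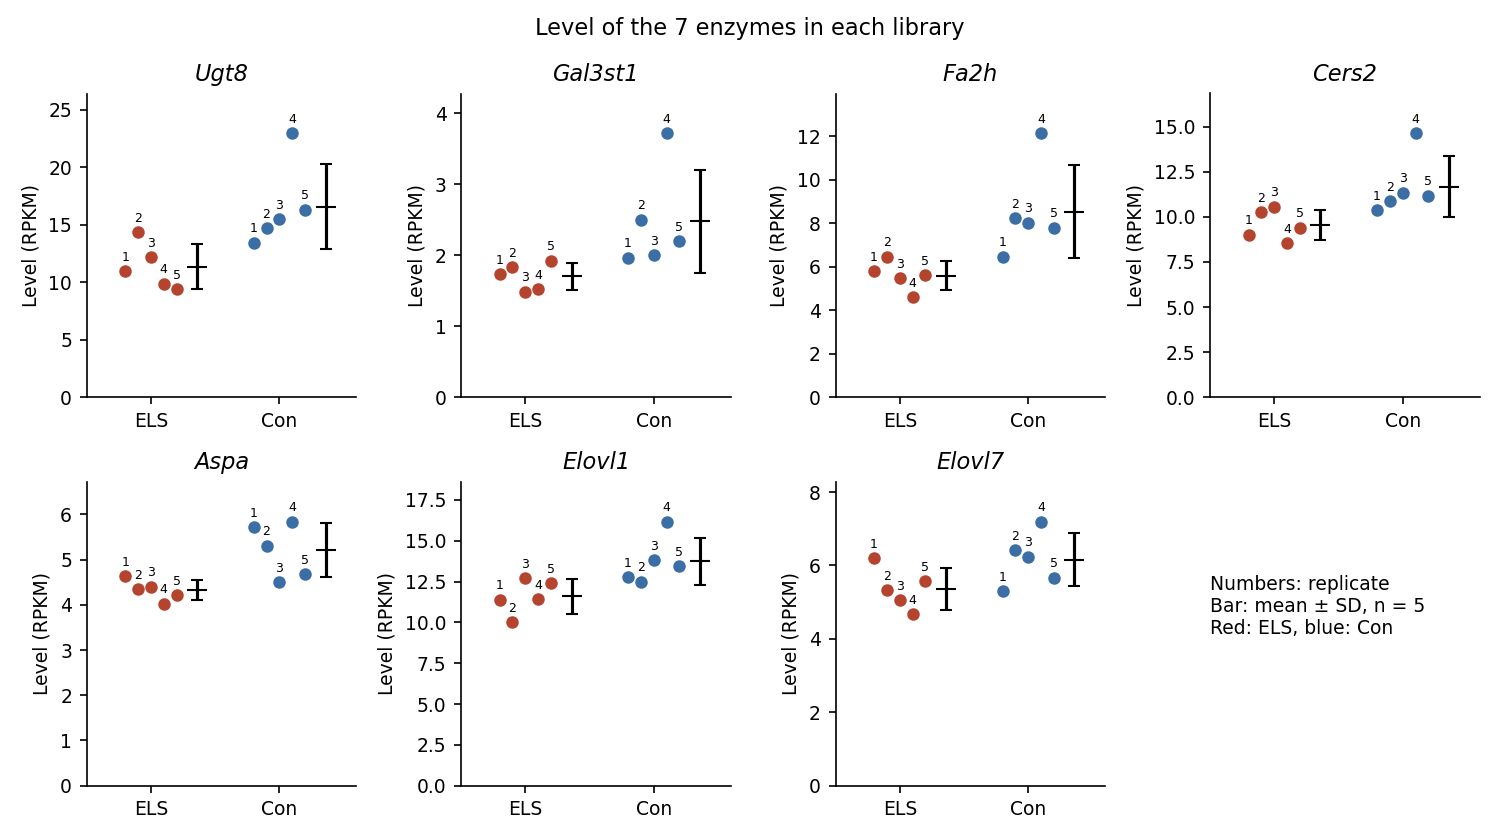
Level of each of the 7 enzyme genes in RPKM (vertical axes, from 0) in the 5 ELS and 5 Con libraries, with points numbered by replicate and bars showing mean ± SD. Con replicate 4 is the highest of the 10 libraries in all 7 genes, and the groups are separate only in Gal3st1 and Fa2h.

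The order of the levels differed between the groups only at the top. In ELS the order was Elovl1, Ugt8, Cers2, Fa2h, Elovl7, Aspa and Gal3st1, and in Con Ugt8 came before Elovl1. Elovl1 exceeded Ugt8 in 4 of 5 ELS libraries, with overlapping ranges, while Ugt8 exceeded Elovl1 in 5 of 5 Con libraries. In ELS, the ranges were apart between Cers2 and Fa2h, between Elovl7 and Aspa, and between Aspa and Gal3st1, and the other neighbours overlapped. In Con only Aspa and Gal3st1, the last neighbours, had ranges apart.

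**Figure D2:**
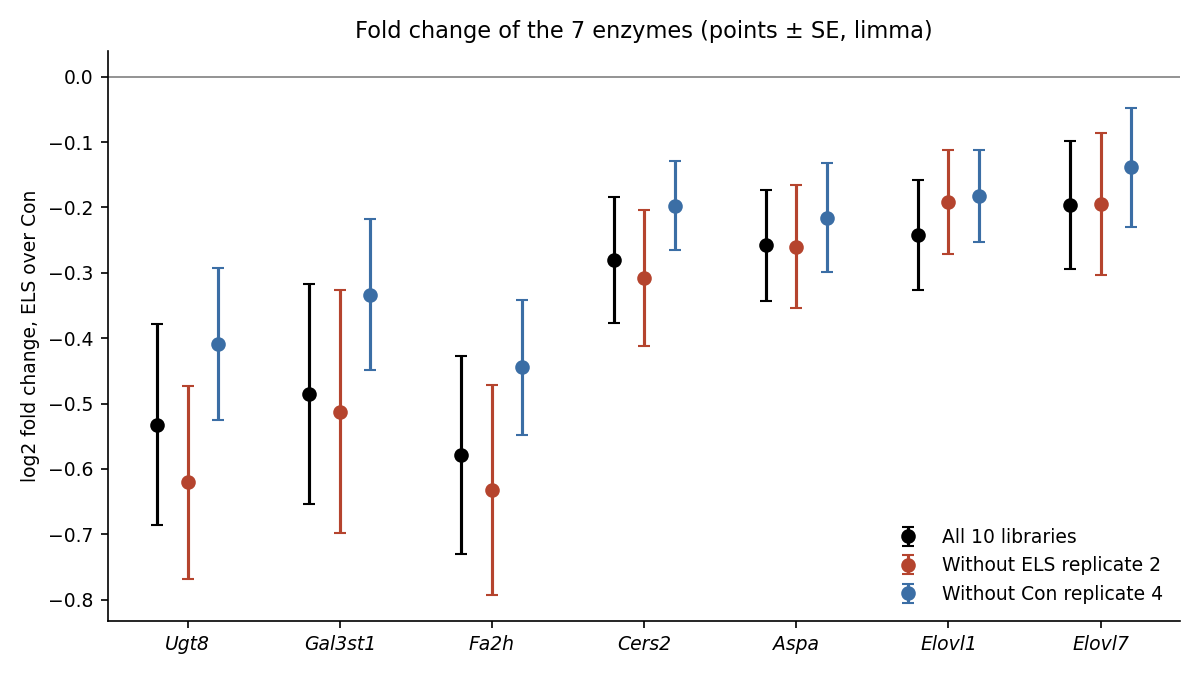
Log2 fold change of ELS over Con (vertical axis) for each of the 7 enzyme genes, as the limma estimate ± SE with all 10 libraries, without ELS replicate 2 and without Con replicate 4. All estimates are below 0, and without Con replicate 4 those of Ugt8, Gal3st1 and Fa2h are -0.41, -0.33 and -0.44.

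Genes that mark oligodendrocytes and myelin were lower in mean as well. Of 15 such markers 15 had lower means in ELS, 0 passed over all genes, and the median log2 fold change was -0.45, or -0.32 without Con replicate 4. At an unadjusted p under 0.05 by limma, 13 of the 15 were lower, against 10.3% of all tested genes. In 7 of the 15 every ELS library lay below every Con library, against 2.6% of all tested genes. The marker lists were also chosen with earlier results known, so these shares are descriptions. Their summed level was 925.2 to 1194 RPKM in ELS and 1217 to 2450 RPKM in Con, where the highest value was that of Con replicate 4 and the next was 1544. Ermn, a cytoskeletal protein gene of oligodendrocytes, was at 15.3 ± 2.09 RPKM in ELS and 23.5 ± 6.25 RPKM in Con, and Cnp, a myelin enzyme gene, at 85.1 ± 6.50 RPKM in ELS and 114.8 ± 20.6 RPKM in Con (SD, n = 5 each). Of 8 markers of the precursor lineage 8 were lower in mean, with Sox10, a lineage transcription factor, at a log2 fold change of -0.42 (limma, adjusted p = 0.133) and Vcan, a proteoglycan gene, at -0.41 (limma, adjusted p = 0.133). The part of these marker shifts in the enzymes' differences was not tested.

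Set against the mean log2 level of the 15 markers within each library, the 7 enzymes lay at different places. Ugt8, Gal3st1 and Fa2h stayed close to the markers, with differences of -0.06, -0.02 and -0.11 on the log2 scale (ELS minus Con). For Ugt8 the marker-relative level had an SD of 0.153 in ELS and 0.0628 in Con, so its difference was within the spread of the ELS libraries. Fa2h was below the Con mean in all 5 ELS libraries, at -0.23 to -0.02, while Con ranged from -0.06 to 0.06. Cers2, Aspa, Elovl1 and Elovl7 had higher means relative to the markers, by 0.19, 0.21, 0.23 and 0.27, with 5, 5, 4 and 5 of 5 ELS libraries above the Con mean. Without Con replicate 4 these became 0.14, 0.13, 0.16 and 0.20. The ranges of the groups overlapped in each of the 7 genes, and these differences are descriptions without a test.

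**Figure D3:**
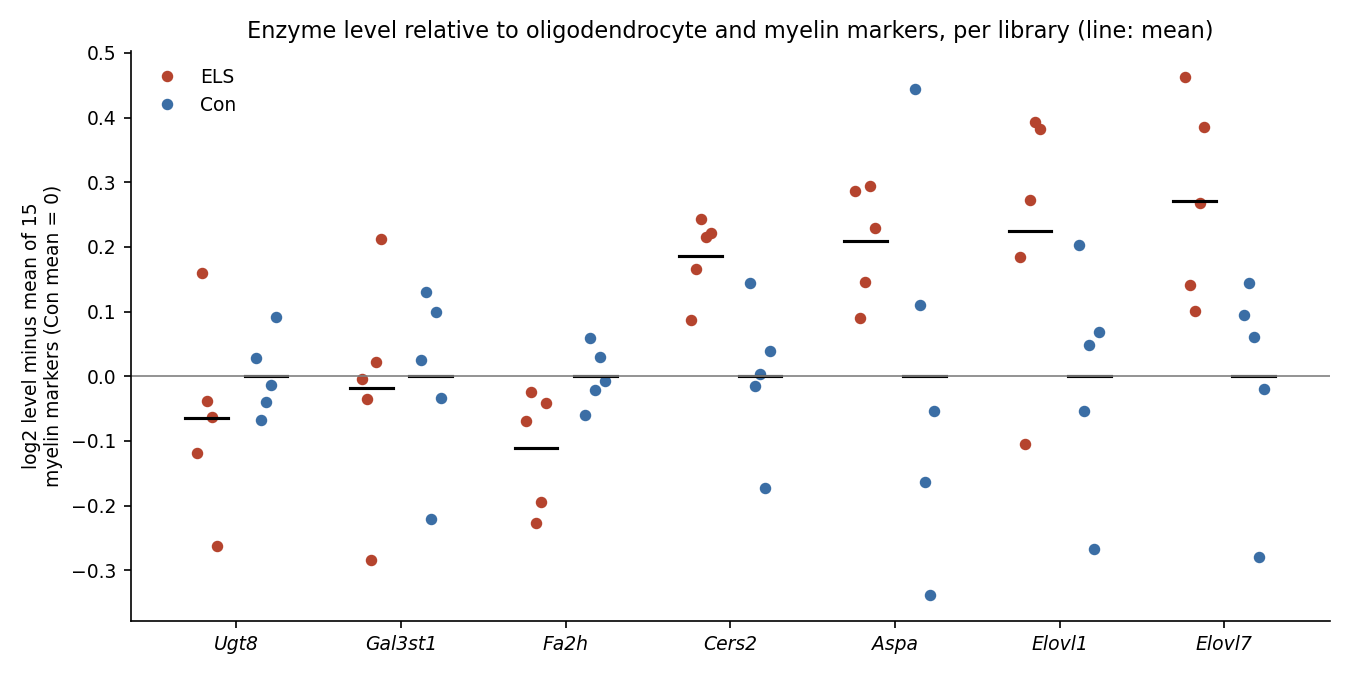
Log2 level of each enzyme gene minus the mean of the 15 oligodendrocyte and myelin markers in the same library (vertical axis, Con mean set to 0), with ELS points left of Con points and lines at the means. The ELS means of Ugt8, Gal3st1 and Fa2h are -0.06, -0.02 and -0.11, and those of Cers2, Aspa, Elovl1 and Elovl7 are 0.19 to 0.27, with overlapping points in all 7.

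Across the 10 libraries, where r includes the group difference, the highest correlations were those of Ugt8 with Cers2 (Pearson r = 0.947) and Gal3st1 with Fa2h (r = 0.943). The 21 pairs had r of 0.591 to 0.947 with a median of 0.735, and over 9 libraries without Con replicate 4 they had r of 0.309 to 0.895 with a median of 0.555. Within the 5 ELS libraries alone, too few for a firm value, 7 of the 21 pairs had r below 0, and 5 of these 7 involved Elovl1. The libraries also share the marker shifts given above. The genes outside the 7 whose pattern over the 10 libraries was most like the mean of the 7 were Ddr1, a collagen receptor kinase gene, with r = 0.991, Cnp with 0.989, Pllp, the gene of the myelin protein plasmolipin, with 0.988, Mobp, a myelin protein gene, with 0.987, and Gsn, the gene of the actin-severing protein gelsolin, with 0.985. Over 9 libraries without Con replicate 4 these were 0.98, 0.977, 0.969, 0.964 and 0.973. Ddr1 was at 10.7 ± 0.561 RPKM in ELS and 15.4 ± 3.17 RPKM in Con (SD, n = 5 each), and 226 genes in all had r above 0.9, or 103 genes without Con replicate 4.

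The balance of each enzyme with a counterpart in the same library was compared for 6 pairs, where library totals cancel, by exact permutation tests over 252 assignments with adjustment over the 6. The pairs were chosen with earlier results of these data known. Their p-values therefore describe these libraries and are not independent evidence of a difference. Only transcripts were measured, and not lipids or enzyme activity. For galactosylceramide, the transcript balance of synthesis with breakdown was taken as the log2 ratio of Ugt8 to Galc, the lysosomal galactosylceramidase gene. It was 1.89, 2.26, 2.11, 1.81 and 1.75 in ELS replicates 1 to 5, against 2.30, 2.56, 2.53, 3.34 and 2.68 in Con replicates 1 to 5. Every ELS ratio was below every Con ratio, and the difference was -0.72 (exact permutation test, two-sided, p = 0.00794, the smallest these assignments can give, adjusted p = 0.0159). Galc itself was higher in mean, at 2.81 ± 0.0935 RPKM in ELS and 2.46 ± 0.186 RPKM in Con (SD, n = 5 each), a log2 fold change of 0.19 (limma, adjusted p = 0.214). Without Con replicate 4 the difference in ratio was -0.55 (exact permutation, adjusted p = 0.0317).

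The matching transcript balance for sulfatide was Gal3st1 to Arsa, the gene of the arylsulfatase that removes its sulfate. Its log2 ratio was -2.62, -2.67, -3.08, -2.79 and -2.63 in ELS replicates 1 to 5, against -2.48, -2.14, -2.51, -1.92 and -2.41 in Con replicates 1 to 5. The groups did not overlap, and the difference was -0.47 (exact permutation test, two-sided, p = 0.00794, adjusted p = 0.0159). Arsa was at 12.1 ± 0.911 RPKM in ELS and 12.2 ± 1.22 RPKM in Con (SD, n = 5 each), a log2 fold change of -0.02.

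Ugt8 shares its ceramide substrate with Ugcg, the glucosylceramide synthase gene. The log2 ratio of Ugt8 to Ugcg was -1.34 ± 0.323 in ELS and -0.59 ± 0.475 in Con (SD, n = 5 each), a difference of -0.75 (exact permutation p = 0.0238, adjusted p = 0.0286). ELS replicate 2, at -0.83, lay inside the Con range of -0.99 to 0.23. Ugcg was at 28.6 ± 2.03 RPKM in ELS and 24.7 ± 3.06 RPKM in Con. The adjusted p was 0.0571 without Con replicate 4, where the difference was -0.54, and also 0.0571 without Con replicate 3 or 5 or ELS replicate 1, 3, 4 or 5.

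Aspa was set against Nat8l, the gene of the neuronal enzyme that makes NAA. Their log2 ratio was -4.39, -4.29, -4.60, -4.67 and -4.54 in ELS replicates 1 to 5, against -3.90, -4.12, -4.19, -3.69 and -4.34 in Con replicates 1 to 5. Con replicate 5 lay among the ELS values, and the other 4 Con libraries lay above them all. The difference was -0.45 (exact permutation p = 0.0159, adjusted p = 0.0238), with Nat8l at 100.01 ± 8.55 RPKM in ELS and 87.4 ± 7.94 RPKM in Con (SD, n = 5 each).

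Elovl1 was set against Elovl4, an elongase gene expressed in neurons. Their log2 ratio was -0.44, -0.57, -0.36, -0.51 and -0.30 in ELS replicates 1 to 5, against -0.12, -0.27, 0.06, 0.40 and -0.16 in Con replicates 1 to 5, with no overlap. The difference was -0.42 (exact permutation p = 0.00794, adjusted p = 0.0159). Elovl4 was at 15.7 ± 0.638 RPKM in ELS and 13.9 ± 1.20 RPKM in Con (SD, n = 5 each).

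The ratio of Cers2 to Cers6, a synthase gene for shorter chains, did not separate the groups. It was 0.80 ± 0.501 in ELS and 0.66 ± 0.197 in Con on the log2 scale (SD, n = 5 each), a difference of 0.13 (exact permutation p = 0.722), and ELS replicate 3 stood alone at 1.64. Cers6 was also lower in mean in ELS, at 5.62 ± 1.53 RPKM against 7.36 ± 1.24 RPKM in Con. Without ELS replicate 3 the difference was -0.08.

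Several of these counterparts are expressed outside oligodendrocytes, and markers of other cells also differed in mean. Of 8 neuron markers 7 had higher mean RPKM in ELS, all but Gad1, with a summed level of 1918 to 2200 RPKM in ELS and 1662 to 1857 RPKM in Con, among them Syt1, the synaptic vesicle calcium sensor gene, at a log2 fold change of 0.26 (limma, adjusted p = 0.133) and Rbfox3, the gene of the neuronal marker NeuN, at 0.16 (limma, adjusted p = 0.133). Of 8 astrocyte markers 8 had lower means, with Aqp4 at -0.34 and S100b at -0.17, as did 8 of 8 microglia markers, with C1qb at -0.29 and C1qc at -0.32. The 4 endothelial and pericyte markers were near 0, with a median of -0.03 and Pdgfrb and Rgs5 at -0.12 and -0.03. The 4 blood rows had a median of -1.07, with Hbb at -1.08 and the 2 rows of Hba-a2, uncertain because counting could split reads between gene copies, at -1.06 and -1.003. None of these lists had a marker at 0 in every library, and the part of these shifts in the ratios was not tested.

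**Figure D4:**
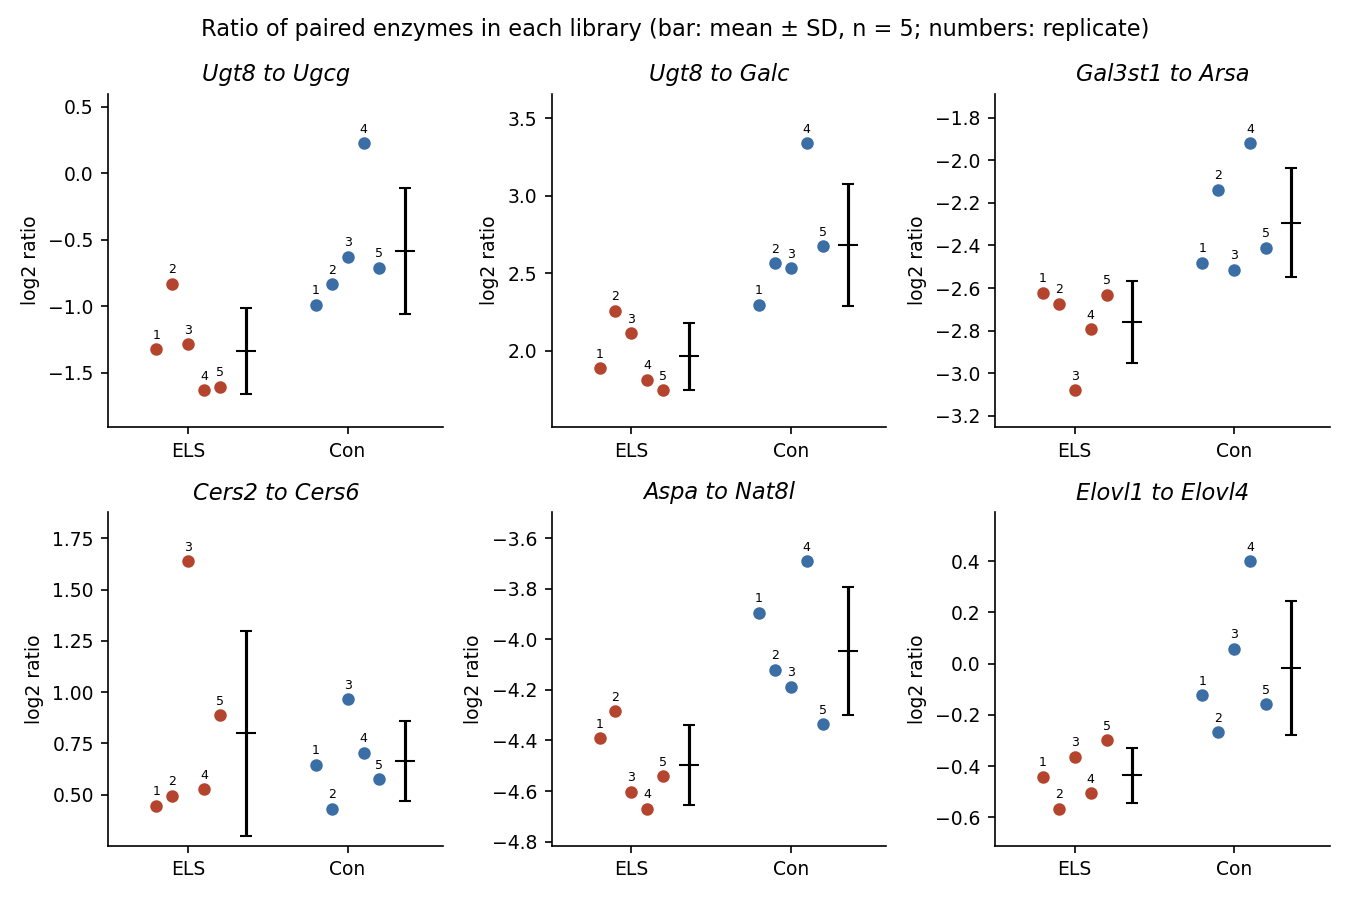
Log2 ratio of the RPKM values of 6 enzyme pairs (vertical axes) in the 5 ELS and 5 Con libraries, with points numbered by replicate and bars showing mean ± SD. Every ELS point is below every Con point for Ugt8 to Galc, Gal3st1 to Arsa and Elovl1 to Elovl4. The groups overlap for Ugt8 to Ugcg, Aspa to Nat8l and Cers2 to Cers6.

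The rest of the sphingolipid pathway had differences in both directions, and 0 of its genes passed the adjusted threshold by limma. The counts at an unadjusted p under 0.05 in the lists that follow stand beside 20.4% of all tested genes in either direction. By the same rule 10.3% of all tested genes were lower. The list of ceramide backbone synthesis covers the making of the sphingoid base and its regulation, without the ceramide synthases. In it 6 of 10 measured genes had lower means, with a median log2 fold change of -0.02. Sptssb, a small subunit gene of serine palmitoyltransferase, was at 5.89 ± 0.865 RPKM in ELS and 4.54 ± 1.12 RPKM in Con (SD, n = 5 each). Sptssa, another small subunit gene, was at 16.6 ± 1.04 RPKM in ELS and 18.2 ± 1.56 RPKM in Con. At an unadjusted p under 0.05, 1 was higher and 0 were lower.

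Among the ceramide synthase genes other than Cers2, 2 of 3 had lower means, with a median of -0.15. Cers5 was at 18.4 ± 0.703 RPKM in ELS and 17.1 ± 1.44 RPKM in Con (SD, n = 5 each), a log2 fold change of 0.11 (limma, adjusted p = 0.31). Of 9 other elongation genes 6 had lower means, with a median of -0.07, 2 higher and 1 lower at an unadjusted p under 0.05. The 2 of lowest p were Elovl4 and Tecr, the enoyl reductase gene of the elongation cycle, at 151.6 ± 7.48 RPKM in ELS and 137.7 ± 9.53 RPKM in Con (SD, n = 5 each).

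Genes that supply the galactose and sulfate donors were split, with 4 log2 fold changes below 0 and 4 above, and with a median of -0.03. Papss2, a synthase gene for the sulfate donor, was at 1.76 ± 0.442 RPKM in ELS and 2.51 ± 0.5204 RPKM in Con (SD, n = 5 each), a log2 fold change of -0.50 (limma, adjusted p = 0.181). Ugp2, which makes UDP-glucose, had a log2 fold change of 0.10 (limma, adjusted p = 0.228). Of 7 genes of galactolipid breakdown 4 had lower means, with a median of -0.02, and the 2 of lowest p, Galc and the saposin precursor gene Psap, were higher, at log2 fold changes of 0.19 and 0.08.

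Of 12 glucosylceramide and ganglioside genes, 10 had higher means in ELS, with a median of 0.09. At an unadjusted p under 0.05, 3 were higher and 0 lower, against 20.4% of all tested genes in either direction. B4galt5, a lactosylceramide synthase gene, was at 18.5 ± 0.697 RPKM in ELS and 16.5 ± 1.68 RPKM in Con (SD, n = 5 each), a log2 fold change of 0.17 (limma, adjusted p = 0.212). Sphingomyelin genes had a median of 0.05 over 8 genes, with 0 past an unadjusted p of 0.05 and Smpd4 and Smpd1, sphingomyelinase genes, at 0.11 and 0.08.

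In the list of NAA and acetate supply, 2 of 7 genes were lower and 2 higher at an unadjusted p under 0.05, with a median of 0.02. Those higher were Nat8l and Acly, the ATP citrate lyase gene, at 43.4 ± 1.76 RPKM in ELS and 40.0 ± 1.18 RPKM in Con (SD, n = 5 each). Peroxisomal genes that break down very long chains had a median of -0.04 over 5 genes, with Hsd17b4 at -0.12 and the transporter gene Abcd2 at 0.19. Of 4 genes whose proteins bind or move glycolipids, 3 had lower means, with a median of -0.29. Gltp, the glycolipid transfer protein gene, was at 11.7 ± 0.874 RPKM in ELS and 15.4 ± 1.30 RPKM in Con, with every ELS library below every Con library (log2 fold change -0.39 ± 0.07, SE; limma, unadjusted p = 0.000198, adjusted p = 0.133). Such a separation held for 2.6% of all tested genes, and Gltp was named for having the lowest p of its list. Mal, a raft protein gene of myelin, was at 43.6 ± 7.44 RPKM in ELS and 58.4 ± 14.4 RPKM in Con (SD, n = 5 each).

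**Figure D5:**
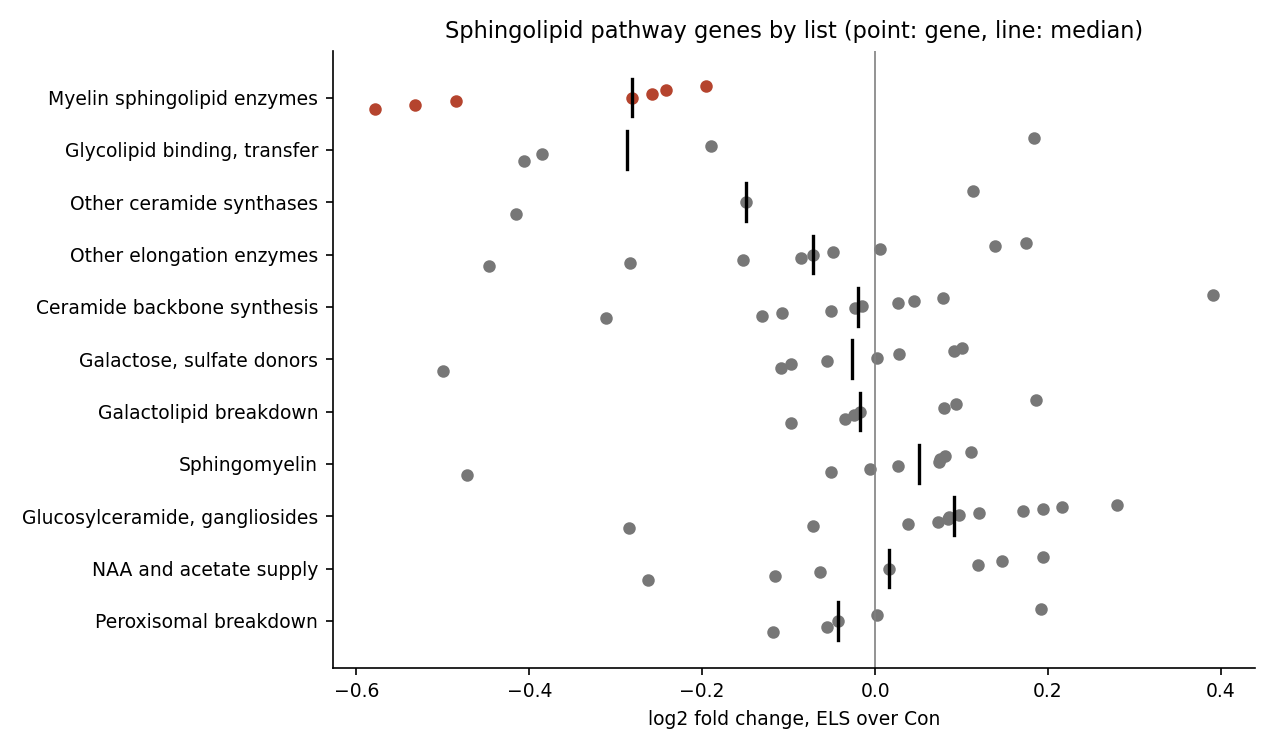
Log2 fold change of ELS over Con (horizontal axis) for each tested gene of the sphingolipid pathway, grouped by list, with a line at each list's median. The 7 myelin sphingolipid enzymes all lie below 0, with a median of -0.28, while ceramide backbone genes have a median of -0.02 and glucosylceramide and ganglioside genes one of 0.09.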

How the data were processed

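Libraries of prefrontal cortex RNA, made with a stranded mRNA kit per the labels' protocols, from 5 ELS and 5 Con rats were compared. Reads were handled with STAR and featureCounts on build rn6, per the submitters' processing notes. For versions, annotation release, strand setting and the choice of listed genes, the sources used here say nothing, so overlapping or antisense genes could share reads. The authors deposited 1 table of RPKM values, of which 0 columns belonged to other samples. Whether RPKM or FPKM was meant is not stated. From the steps between low values, each library's total, each gene's length and its whole read numbers were worked out for 16015 genes (100% of those above 0, tolerance 0.002 reads), and 26 genes were at 0 everywhere.

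After log2(RPKM + 0.1), limma 3.58.1 (R 4.3.3), trended and robust, two-sided, was run on the 14642 genes reaching 0.5 RPKM in a minimum of 5 libraries, with Benjamini-Hochberg adjustment over all genes and a threshold of 0.05. Ratios used exact permutation tests (scipy 1.17.1). The fit was also run on simulated reads with the same spread in every library. That run does not show how the fit behaves with an outlying library such as Con replicate 4. The 7 genes, the lists and the pairs were chosen with earlier results of these data known. Named were the 7 genes, the 2 genes of lowest p per list, the ratio partners and the 5 genes of most similar pattern. A gene that this rule names is not reported here. Alternatives were the pseudocount, the filter, the scaling, limma-voom on recovered reads with and without sample weights, a replicate block, and leaving out libraries.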

Additional observations from a re-analysis of the deposited data

Results flagged for a closer look

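Among 26 groups of 5 values checked, those of the 7 genes and the 6 ratios in ELS and in Con, 1 held a library far from the others. Cers2 was at 14.6 RPKM in Con replicate 4, and its gap to the next Con library was 0.774 of the range of the group, above Dixon's critical value of 0.71. Chance flags about 1 in 20 such groups. The same library was the highest of the 10 in all 7 genes, and its marker values stand in the report.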

How the results depend on the processing

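Over 18 alternatives, the log2 fold changes of the 7 genes gave 126 values, all 126 below 0, and the median of the 7 stayed between -0.32 and -0.22. These are refits of the same libraries and not separate evidence. Dropping the filter or adding the replicate block leaves the fold changes of the 7 genes unchanged by construction. Genes past the adjusted threshold over the whole table numbered 0 with all libraries, 933 by limma-voom with sample quality weights, and 1071 without both ELS replicate 2 and Con replicate 4. With 1 library left out they ranged from 0 to 440, with 1 without ELS replicate 5 and 440 without ELS replicate 2. Without ELS replicate 2, 0 of the 7 genes passed (adjusted p = 0.0577 for Ugt8 and 0.066 for Fa2h). With sample weights and without both libraries, 2 of the 7 passed, Ugt8 and Fa2h, against 4.07% and 3.92% of all tested genes called lower. Ugt8 had log2 fold changes of -0.48 with weights and -0.50 without both libraries (adjusted p = 0.0382 and 0.0172), and Fa2h -0.47 and -0.50 (adjusted p = 0.0315 and 0.022). The adjusted p of Ugt8 over all alternatives was 0.0172 to 0.296, and that of Fa2h 0.022 to 0.293.

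The ratio of Ugt8 to Ugcg lost its call in 7 of the 10 settings that left out 1 library, with differences of -0.87 to -0.54 over the 10. With 1 library left out the smallest possible permutation p is 0.0159. The ratio of Cers2 to Cers6, not called, became -0.0752 without ELS replicate 3, from a range of -0.0752 to 0.223. The other 4 ratios kept their calls under all 12 alternatives run on them. For the 3 ratios without overlap, leaving out 1 library must again give the permutation p of 0.0159. Their calls in those settings were therefore fixed in advance and add no support. A replicate block on the shared replicate numbers also gave 0 genes over the table and 0 of the 7. Same-numbered libraries showed no strong shared deviation (correlations of -0.082 to 0.066). ELS replicates 2 and 5 still correlated best with the Con library of the same number. Such correlations cannot exclude a weak pairing, so whether the numbers pair the samples is not known. Gal3st1, with as few as 58 reads in a library, has the widest counting error of the 7 genes. The cause of these changes with the setting was not tested.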
